A study of Mus musculus with 474 samples.

Results

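Male Diversity Outbred mice with the most RNA for Slc15a5 in skeletal muscle were compared with those that had the least. The animals were chosen by the deposited expression score of Slc15a5 alone: in each of 5 generations the 10 males with the highest score formed the high group and the 10 with the lowest score the low group. This gave 50 high and 50 low males, which made up 41.8% of the males and 21.1% of all libraries of the series. The other 139 males fell in neither group, and the females, 49.6% of the libraries, were not ranked. No label marks these groups. They are a range of expression and received no treatment of their own, so the level of Slc15a5 in them is a description and carries no test.

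All animals came from the Diversity Outbred stock, in which every mouse carries its own mixture of the genomes of the founder strains, and each gave 1 library of muscle RNA, named gastrocnemius in the study's methods. All received the same high-fat, high-sugar diet (labelled 45 percent fat) from a young age until they were killed as adults. The groups therefore shared stock, sex, diet and tissue. The generation was read from a number in the library title (17, 18, 19, 21 or 23), which is an assumption for some of these numbers.

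Slc15a5 encodes a member of the proton-coupled oligopeptide transporters, membrane proteins that carry short peptides into cells together with protons. Slc15a1 and Slc15a2, the well-studied members, take up peptides in gut and kidney, Slc15a3 and Slc15a4 act in the membranes of lysosomes and endosomes, and the substrate of Slc15a5 is not firmly known. Genes that lie close together on a chromosome are passed on together in an outbred stock, so the neighbours of Slc15a5 were described apart from the other genes.

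Slc15a5 (ENSMUSG00000044378) is a protein-coding gene on the minus strand of chromosome 6 (GRCm38, chr6:137983586-138079916), and no other gene of GENCODE M21 overlaps it. The 250 bases before its RefSeq start, chr6:138079917-138080166 on the minus strand, and those before Lmo3, chr6:138581969-138582218 on the minus strand, are printed 5′ to 3′ because Lmo3 was a called neighbour in the comparison and neither stretch holds an annotated exon. Capitals mark each match to the E-box CANNTG, the type of site that the myogenic regulatory factors bind.
Slc15a5: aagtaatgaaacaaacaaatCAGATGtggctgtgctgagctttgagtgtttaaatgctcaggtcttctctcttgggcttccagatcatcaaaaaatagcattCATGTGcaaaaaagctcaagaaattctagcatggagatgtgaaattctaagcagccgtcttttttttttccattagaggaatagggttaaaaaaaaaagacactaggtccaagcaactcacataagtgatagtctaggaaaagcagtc
Lmo3: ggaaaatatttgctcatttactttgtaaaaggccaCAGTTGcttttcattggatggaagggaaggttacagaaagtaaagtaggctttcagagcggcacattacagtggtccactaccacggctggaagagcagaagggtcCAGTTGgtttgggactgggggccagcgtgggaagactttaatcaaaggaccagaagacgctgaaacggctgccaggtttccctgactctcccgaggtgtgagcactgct
Both stretches held 2 E-boxes. Of 32851 RefSeq promoter windows of the same length, 66.2% held at least 1. Neither stretch held AGAACA on either strand, the core of sites bound by the glucocorticoid receptor, which was present in 16.1% of all windows. The windows of Mgst1 and Rergl overlap annotated exons and are not shown, and Eps8 had no entry in the table used. A match is a description of the letters only.

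Slc15a5 RNA was 7.21 times higher in the high than in the low group by median. In counts per 1000000 counts of a library (CPM), the 50 high males ranged from 23.1 to 61.7 with a median of 31.7 (mean 33.8 ± 8.19 SD). The 50 low males ranged from 0 to 8.90 with a median of 4.39 (mean 4.26 ± 2.26 SD). The other 139 males lay between 5.71 and 26.7 with a median of 14.6, and the females between 0 and 5.19 with a median of 0.516. The high and low groups did not overlap, as the rule fixes, but each overlapped the other males when generations were pooled. In the low group 2 males had a count of 0, 5 were under 1 CPM, and 31 lay under the highest female.

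The medians were alike between generations, whereas the spans were not. The high group's median was lowest in generation 23 (27.9 CPM) and highest in generation 21 (33.6 CPM), and the low group's median was lowest in generation 19 (3.10 CPM) and highest in generation 23 (4.92 CPM). The high males spanned 24.6 to 37.1 CPM in generation 19 (SD 4.002, n = 10) but 24.6 to 61.7 CPM in generation 18 (SD 10.9, n = 10). The lowest low male had 2.87 CPM in generation 17 and 2.52 CPM in generation 18, against 0, 0.0603 and 0 CPM in generations 19, 21 and 23, from which all 5 males under 1 CPM came. The boundary was narrow. In generation 19 the last male inside the high group and the first outside it both had a score of 11.14, and in generation 23 the last low male had 9.713 and the next male 9.715. In generation 21 the high boundary lay between 11.3 and 11.11, and the low one between 9.51 and 9.807. The score is a variance stabilising transform (VST), whose unit is close to log2 at the counts of most males. At low counts a unit spans more than a doubling. Female DO067 had 0.0606 CPM and a score of 6.715, and female DO021 had 0.505 CPM and a score of 7.374.

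**Figure D1:**
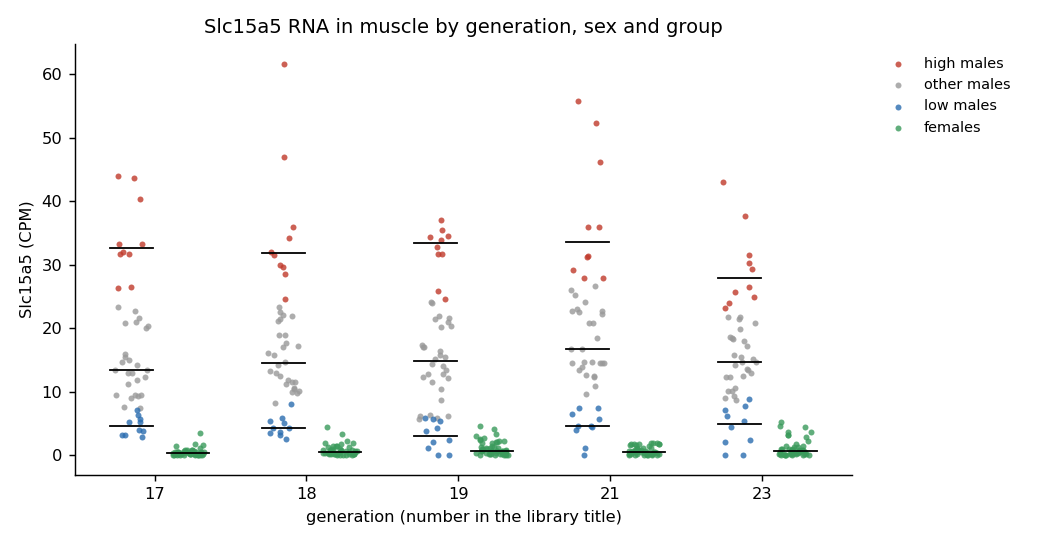
Slc15a5 RNA in CPM (linear axis) in every library by generation, with males on the left and females on the right of each generation and a bar at each group's median. The high males lie between 23.1 and 61.7 CPM and the low males between 0 and 8.90 CPM, while the females stay at or under 5.19 CPM.

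The libraries were deep, and the groups were alike in the markers that define the tissue. Total counts, which count read ends and are given in units of 1000000, were 80.3 ± 17.1 (SD, n = 50) in the high and 85.4 ± 14.5 (SD, n = 50) in the low group, a difference of -5.15 (2-sided permutation test, p = 0.11). With medians in place of means the difference was -5.46 and p = 0.0409. The muscle genes Ckm, Acta1, Myh4, Des and Mb were abundant in all 100 libraries (lowest value 1298 CPM, for Mb), and none was called. The Y-linked Ddx3y was at 60.98 CPM or more and Xist at 1.27 CPM or less in all 100, as the label male implies. Outside the 100, a limit of 10 CPM was missed by 2 males (1 with both genes at 0, 1 with Ddx3y high and Xist at 13.4 CPM) and by 2 females, which had Xist under 10 CPM and Ddx3y at 0. These libraries stayed in the tests below, and leaving them out moved no count of calls by over 1.5 times.

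Of 18822 genes tested, with Slc15a5 itself left out, 10 passed an adjusted p of 0.05 in the quasi-likelihood test of edgeR with generation as covariate (0.0531% of the genes tested). The gene with the smallest adjusted p was Mgst1, a glutathione S-transferase of microsomal membranes that lies next to Slc15a5. Of the 10, 7 genes were higher in the high group (0.0372%) and 3 lower (0.0159%), and 4 differed by at least 1.5-fold. At an unadjusted p under 0.05 there were 1572 genes (8.35%). The deposited scores had been corrected separately in 5 sets of libraries, called batches here, of which 2 were large. Within them the same comparison called 1 gene in batch 1 (27 high against 25 low) and 0 in batch 2 (21 against 24), where 1109 and 1042 genes had an unadjusted p under 0.05. With batch as a covariate over all 100 libraries 10 genes were called, 9 of them shared with the comparison without batch. The count was 34 with DESeq2, 32 with no covariate, 29 as a slope over all males, 27 without generation 23, 4 without generation 17 and 3 without generation 18.

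**Figure D2:**
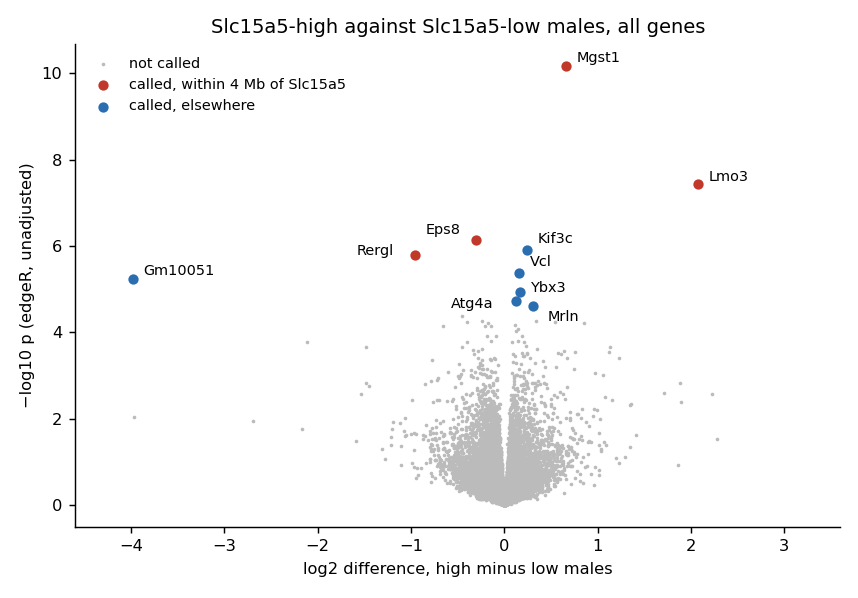
Each point is 1 of 18822 genes, with the log2 difference between high and low males on the x axis and −log10 of the unadjusted edgeR p on the y axis. The 10 called genes are named, and Mgst1 and Lmo3, both within 4 Mb of Slc15a5, stand above the rest.

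Of the 10 called genes 4 lie within 4 Mb of Slc15a5, with distances taken between the lower coordinates of the genes whatever their strand. These were Mgst1 (0.16 Mb), Lmo3 (0.38 Mb), Eps8 (-0.51 Mb) and Rergl (1.51 Mb), where a minus sign means a position below Slc15a5. They were 4 of 54 tested genes in that interval (7.41%), against 6 of 18768 genes elsewhere (0.0320%). At an unadjusted p under 0.05 the counts were 12 of 54 (22.2%) and 1560 of 18768 (8.31%). Between 4 and 20 Mb away, 1 gene was called (0.377%), and further along chromosome 6 0 of 788, of which 50 had an unadjusted p under 0.05. The called neighbours moved in both directions, with Mgst1 and Lmo3 higher and Eps8 and Rergl lower in the high group.

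Mgst1 (ENSMUSG00000008540, chr6:138140316-138156755, plus strand) has its annotated 5′ end 60.4 kb from that of Slc15a5 and is transcribed away from it. It ranged from 16.5 to 57.8 CPM with a median of 32.8 in the high group. In the low group it ranged from 7.78 to 44.6 CPM with a median of 22.2. The ranges overlapped, yet 45 of 50 high males lay above the median of the low group. The log2 difference was 0.66 ± 0.09 (SE), or 1.58-fold (edgeR adjusted p = 1.28e-06). It was positive in each generation, from 0.55 in generation 17 to 0.81 in generation 18, and was 0.70 in batch 1 and 0.59 in batch 2, with adjusted p of 0.00959 and 0.314.

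Lmo3 (ENSMUSG00000030226, chr6:138362918-138581968, minus strand), a LIM-only cofactor of transcription, was barely expressed. The high males had a median of 8 reads of Lmo3 and a maximum of 84, the low males a median of 0 and a maximum of 18. In CPM the high group reached 0.602 and the low group 0.205, with 2 and 26 libraries at a count of 0. The groups overlapped near 0, and 48 of 50 high males lay above the low group's median of 0. The log2 difference was 2.07 ± 0.35 (SE; edgeR adjusted p = 0.000351), on few reads, and on the VST scale it was 0.31.

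Eps8 (ENSMUSG00000015766, chr6:137477245-137654876, minus strand), a signalling adaptor that caps and bundles actin filaments, went the other way. It ranged from 4.62 to 11.3 CPM with a median of 6.65 in the high group and from 5.32 to 14.1 CPM with a median of 8.06 in the low group. The groups overlapped over most of their range, and 7 of 50 high males lay above the low median. The log2 difference was -0.31 ± 0.06 (SE; edgeR adjusted p = 0.00453), with -0.03 in generation 18 and between -0.25 and -0.44 in the other generations. Without generation 21 the adjusted p was 0.0797. It was -0.31 in batch 1 and -0.30 in batch 2, past the threshold in neither.

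Rergl (ENSMUSG00000092164, chr6:139492973-139501976, minus strand), a small GTPase of the RAS-like family, was also scarce, with a median of 13 reads in the high and 33 in the low group. It ranged from 0 to 0.703 CPM with a median of 0.187 in the high group and from 0.0630 to 0.840 CPM with a median of 0.398 in the low group. Of the high males, 3 of 50 lay above the low median, although the ranges overlapped. The log2 difference was -0.96 ± 0.19 (SE; edgeR adjusted p = 0.00598), negative in all 5 generations, and on the VST scale it was -0.28. Without generation 17 the adjusted p was 0.167 and without generation 18 it was 0.0596.

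**Figure D3:**
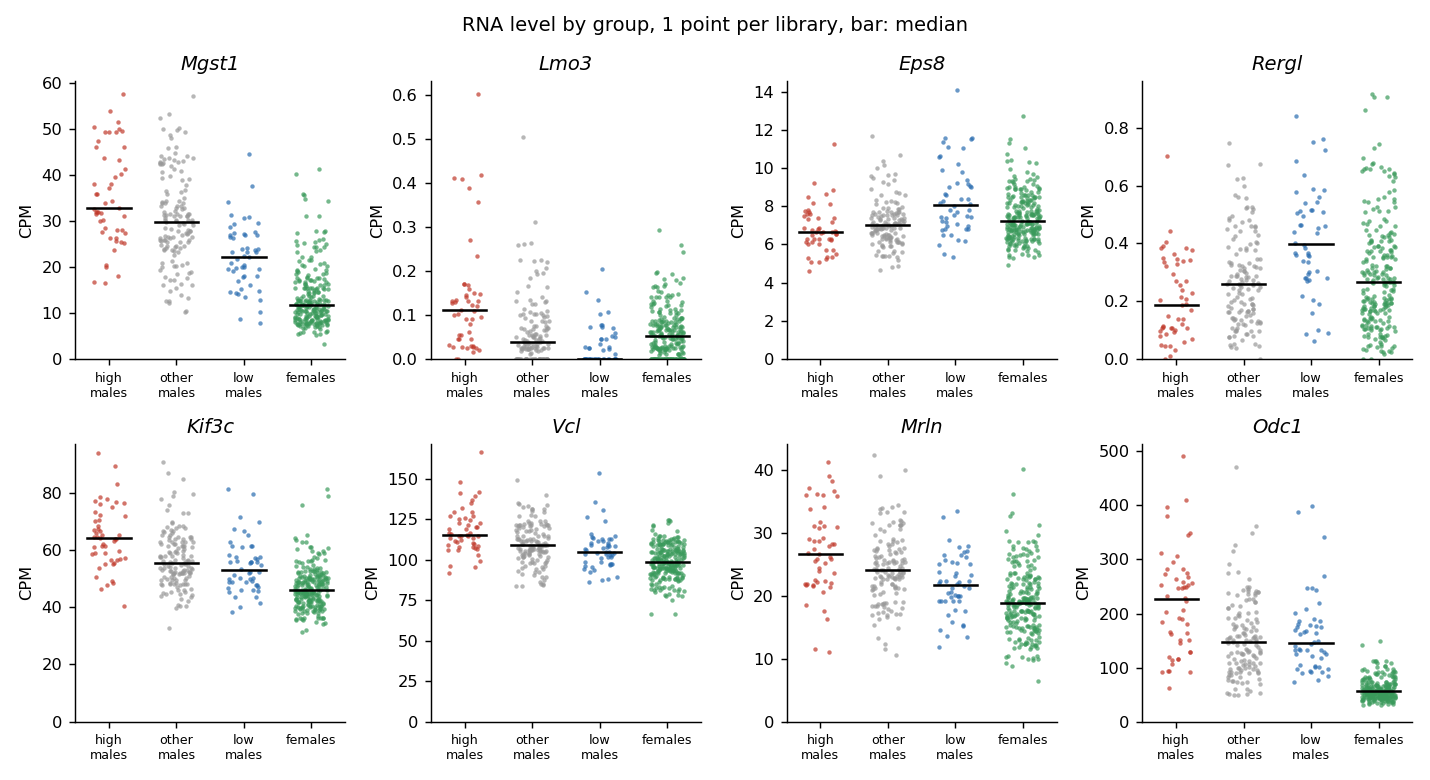
CPM (linear axes from 0) of 4 called neighbours of Slc15a5 (upper row), of 3 called genes on other chromosomes and of Odc1, which was not called (lower row), with 1 point per library and a bar at the median. The other males lie between the high and the low males by median in all 8 genes, while the groups overlap in each.

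The neighbours were then examined in libraries that did not enter the choice. In the females the slope of each gene on the score of Slc15a5 was tested with generation as covariate, in log2 units of the gene per unit of the score. The females had a median of 42 reads of Slc15a5, so their ranking rests on low counts. A unit of the score spans more than a doubling of CPM there. Of 18821 genes 1.34% were called, 0.877% with a positive slope and 0.468% (88 genes) with a negative one, and 2825 had an unadjusted p under 0.05. All 4 called neighbours were among them with the sign they had in males. The slope was 0.38 ± 0.06 (SE) for Mgst1, 0.67 ± 0.17 for Lmo3, -0.14 ± 0.02 for Eps8 and -0.64 ± 0.10 for Rergl (edgeR adjusted p = 5.38e-05 for Mgst1, Eps8 and Rergl and 0.0217 for Lmo3). These 4 genes are 40% of the 10 genes called between high and low males and 1.58% of those called in females. None of the other 6 was called in females, where 8 of the 10 had the sign they had between high and low males and Atg4a (-0.01) and Mrln (-0.03) did not. Within 4 Mb 5 of 54 genes were called in females (9.26%), the fifth being the RNA helicase gene Ddx47 (slope -0.06), against 1.32% of the genes elsewhere.

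In the 139 males of neither group, whose Slc15a5 varied less, 0 genes were called by the same slope test in edgeR or by limma on the deposited scores (smallest edgeR adjusted p = 0.184), and 1258 had an unadjusted p under 0.05. All 10 genes called between high and low males kept their sign there, several of them near 0. Away from Slc15a5, Kif3c (0.009 ± 0.051 SE), Vcl (0.005 ± 0.033), Mrln (0.014 ± 0.069) and Gm10051 (-0.46 ± 1.26) had slopes smaller than their SE. Ybx3 (0.046 ± 0.036) and Atg4a (0.054 ± 0.031) had slopes larger than theirs. The slope was 1.02 ± 0.35 (SE) for Lmo3 (unadjusted edgeR p = 0.00413), 0.18 ± 0.10 for Mgst1 (p = 0.0644), -0.30 ± 0.18 for Rergl (p = 0.0886) and -0.02 ± 0.05 for Eps8 (p = 0.681). By level, Mgst1 had a median of 29.9 CPM in these males, below the high and above the low group, and 11.8 CPM in females.

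**Figure D4:**
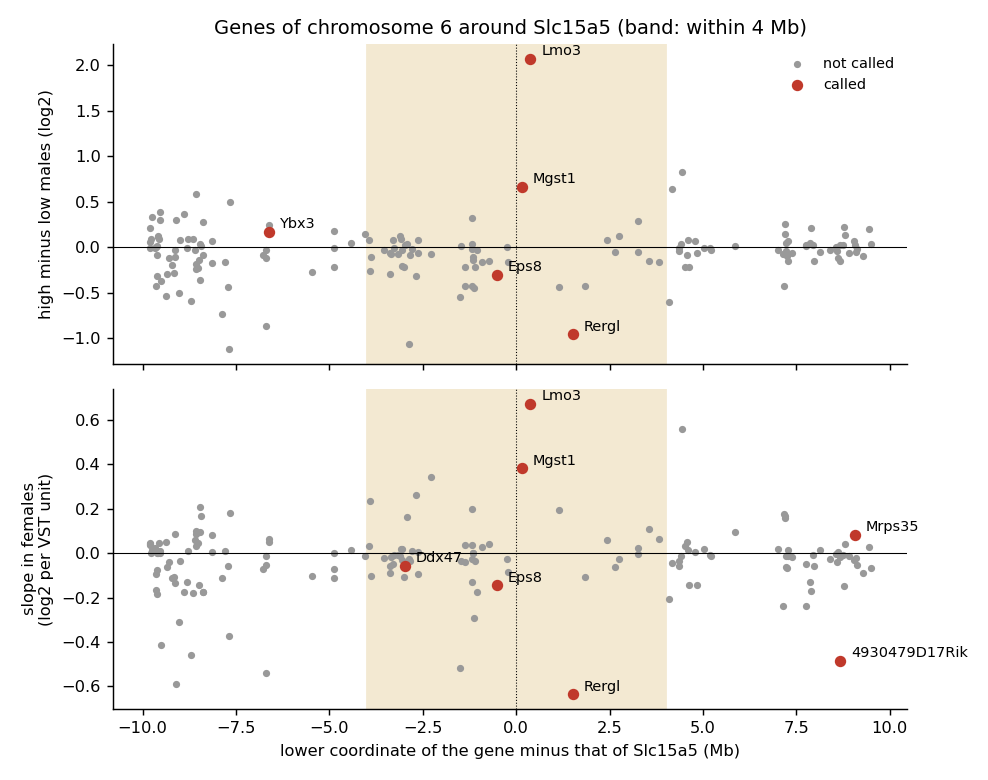
Genes of chromosome 6 by the distance of their lower coordinate from that of Slc15a5 in Mb, with the log2 difference between high and low males above and the slope in females below. Points past the adjusted threshold are red and named, and Mgst1, Lmo3, Eps8 and Rergl are red with the same sign in both panels.

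The other 6 called genes lie away from Slc15a5. Of these 5 were higher in the high group, all by less than 1.5-fold. Kif3c, a subunit of a kinesin motor, ranged from 40.3 to 93.9 CPM with a median of 64.03 in the high group and from 38.5 to 81.3 CPM with a median of 52.9 in the low group. The groups overlapped, and the log2 difference was 0.24 ± 0.05 (SE; edgeR adjusted p = 0.00598), positive in all 5 generations. The adjusted p was 0.0995 without generation 17 and 0.247 without generation 18. Kif3c shares its locus with 1110002L01Rik, which is also in the table, so reads of either may be counted for the other.

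Vcl, whose product vinculin anchors actin at cell adhesions and the edges of muscle fibres, had a median of 115.6 CPM in the high group (91.6 to 166.8) and 104.9 CPM in the low group (86.1 to 153.6). The log2 difference was 0.15 ± 0.03 (SE; edgeR adjusted p = 0.0137), but it overlaps Ap3m1 on the genome. Ybx3, a Y-box protein that binds nucleic acids, is on chromosome 6 as well, at -6.62 Mb from Slc15a5, and had medians of 933 and 820 CPM (log2 difference 0.17 ± 0.04, edgeR adjusted p = 0.0271). Atg4a, a protease of autophagy, had medians of 29.2 and 26.7 CPM (0.12 ± 0.03, adjusted p = 0.0389). The differences of these 3 genes were positive in each generation, down to 0.02 for Vcl in generation 23, and the ranges overlapped widely. All 3 lost their calls without generation 17 (adjusted p = 0.315 for Vcl, 0.271 for Ybx3 and 0.108 for Atg4a) and without generation 18 (0.304, 0.305 and 0.304).

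Mrln, the gene of myoregulin, a micropeptide that inhibits the calcium pump of the sarcoplasmic reticulum, had a median of 26.8 CPM in the high group (11.2 to 41.4) and 21.7 CPM in the low group (11.9 to 33.6). Its log2 difference was 0.31 ± 0.07 (SE; edgeR adjusted p = 0.047), with 0.60 in generation 18 and -0.02 in generation 23. It was 0.17 in batch 1 and 0.44 in batch 2, past the threshold in neither, and the call was lost without generation 17, 18 or 19 (adjusted p = 0.448, 0.463 and 0.0804). Without low male DO084 of generation 17, a library with RNA of hair and skin, the adjusted p of Atg4a and Mrln was 0.0617 and 0.0622, with log2 differences of 0.12 and 0.30, close to those with it.

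Gm10051, annotated as a processed pseudogene, was also called, and was high in only 3 of the 100 libraries, all of the low group. In the low group 3 males lay between 17.6 and 24.9 CPM and the rest at 0.133 CPM or less, while all 50 high males were at 0.264 CPM or less. Such high libraries also occurred outside the comparison, in 10 of the 139 other males and 8.09% of the females, and none lay between 1 and 10 CPM. Without the low library highest in Gm10051 the adjusted p was 0.257, and in DESeq2 the sign turned (0.68). Reads of a pseudogene can be shared with its parent gene, so its value is uncertain.

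No other member of the Slc15 family was called. Slc15a4, of lysosomes and endosomes, had a median of 13.7 CPM in the high and 12.5 CPM in the low group (log2 difference 0.19 ± 0.06 SE, edgeR adjusted p = 0.276), and was positive in all 5 generations. Slc15a2 spread from 0.0226 to 28.5 CPM in the high and from 0.153 to 31.9 CPM in the low group. Its medians were close, at 0.981 and 0.879 CPM. Its log2 difference was 0.89 ± 0.48 (SE; edgeR adjusted p = 0.629), with -1.43 in generation 17 and 2.35 in generation 19. Slc15a3 was near 0.4 CPM by median in both groups (edgeR adjusted p = 0.969). Slc15a1 was not among the genes tested. Of 15 genes of the Slc15 family and of dipeptide handling 14 were tested and 0 were called, with a median log2 difference of -0.03 beside -0.01 over all genes, and 1 (Slc15a4) had an unadjusted p under 0.05.

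Slc15a5 is far higher in males than in females, so the genes that differ between the sexes were described in the high and low males. The sexes were compared in the libraries outside the comparison, where 9106 of 18822 genes were called (48.4%), 4100 higher (21.8%) and 5006 lower (26.6%) in males. By at least 1.5-fold 923 genes differed (4.9%), with males above females in 35.97% of them and below in 64.03%. Of the genes higher in males by this rule 74.4% had a positive difference between the high and the low group, with a median log2 difference of 0.17, whereas 46.2% of all genes were positive and their median was -0.01. Of those lower in males, 198 (33.5%) were positive and the median was -0.10. Only Mgst1 was called among the genes higher in males and none among those lower, and 21.7% and 10.5% of them had an unadjusted p under 0.05, beside 8.35% of all genes. These genes are not independent of each other, and no test was made of the counts.

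The named genes of male muscle show the size of these differences. Odc1, ornithine decarboxylase of polyamine synthesis, had a median of 226.4 CPM in the high group (62.96 to 490.98) and 145.6 CPM in the low group (72.98 to 397.97), against 56.1 CPM in females. Its log2 difference of 0.43 ± 0.12 (SE) was positive in all 5 generations and missed the threshold (edgeR adjusted p = 0.158). Smox, spermine oxidase, had medians of 150 and 117 CPM (0.42 ± 0.12, adjusted p = 0.177), and Amd1, S-adenosylmethionine decarboxylase, 1224 and 1005 CPM (0.26 ± 0.09, adjusted p = 0.305). Amd2, a near-identical copy whose reads cannot be separated with certainty, had 471.5 and 431.6 CPM (0.09 ± 0.37). Of 24 polyamine genes 23 were tested and 0 called, with 3 higher and 1 lower at an unadjusted p under 0.05 and a median log2 difference of 0.01.

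1700001O22Rik had medians of 5.90 CPM in the high and 3.72 CPM in the low group and 0.451 CPM in females (0.67 ± 0.18 SE, edgeR adjusted p = 0.131). C7, a complement component, had medians of 15.4, 11.4 and 1.38 CPM (0.34 ± 0.14, adjusted p = 0.474). Of the genes named for growth and steroid response, Igf1, an anabolic growth factor (0.11 ± 0.10), the growth inhibitor Mstn (0.16 ± 0.06) and Fkbp5, a chaperone gene that steroid receptors induce (0.10 ± 0.12), also missed the threshold. The 5 largest male-higher genes, Ddx3y, Eif2s3y, Kdm5d, Uty and Gm37158, are Y-linked and ranged from -0.06 to 0.13 in log2. Of the 5 largest female-higher genes, Xist, Mup10, Stc2 and Greb1 ranged from -0.40 to 0.13 in log2. The fifth, Ucp1, the uncoupling protein of brown fat, had medians of 0.0721 and 0.0849 CPM but 1 high library reached 65.8 CPM (log2 difference 2.23 ± 0.72, adjusted p = 0.263).

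**Figure D5:**
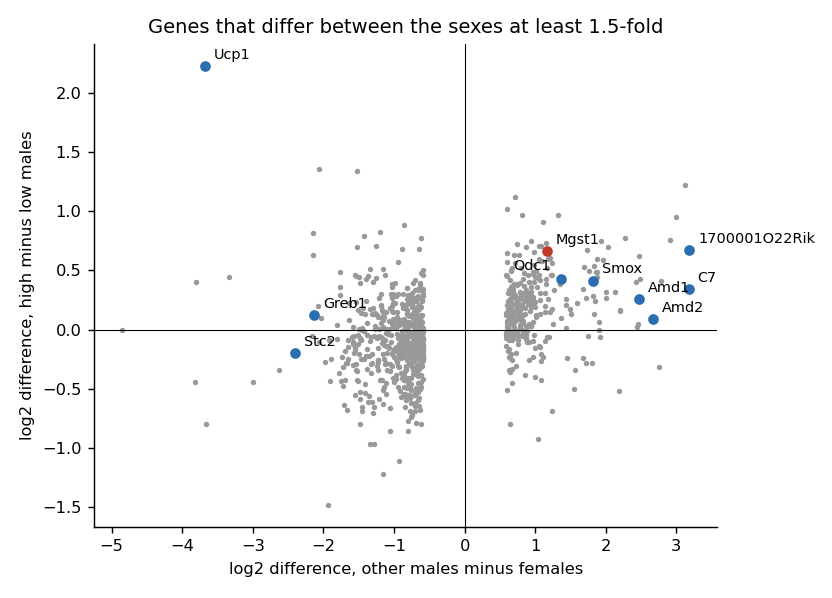
Genes that differed between the other males and the females at least 1.5-fold (adjusted p under 0.05, Y-linked genes and Xist not drawn), with that log2 difference on the x axis and the log2 difference between high and low males on the y axis. Of the male-higher genes drawn 74.7% lie above 0, only Mgst1 (red) was called, and the blue points are other named genes.

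The lists of muscle biology held no called gene. There were 24 lists with 350 genes, of which 5 were not tested, 0 were called and the smallest adjusted p was 0.066, for Casq2, calsequestrin of slow fibres. Casq2 had a median of 18.2 CPM in the high and 22.5 CPM in the low group (log2 difference -0.41 ± 0.10 SE). Over all genes 46.2% of the differences were positive, 53.8% negative and 8.35% at an unadjusted p under 0.05. All 10 slow fibre genes had negative differences (median -0.16, 1 with an unadjusted p under 0.05, a share near that of all genes), and the 12 fast fibre genes had a median of 0.02. Myh7, the slow myosin heavy chain, had 831 and 976 CPM (-0.18 ± 0.11, edgeR adjusted p = 0.682), and Myh4, the fastest, 70968 and 71858 CPM (0.03 ± 0.04, adjusted p = 0.889). Of 14 heat shock genes 13 were positive, with a median of 0.13 and 5 at an unadjusted p under 0.05, among them Hsph1 (0.25 ± 0.08) and Hsp90aa1 (0.30 ± 0.12).

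Markers of other cells held no called gene. In bulk RNA, fewer cells of a type and less RNA per cell cannot be told apart. All 8 Schwann cell genes were negative (median -0.24, 6 at an unadjusted p under 0.05, beside 53.8% negative and 8.35% at such a p over all genes), and their summed level ranged from 45.8 to 157.5 CPM with a median of 74.5 in the high group and from 43.4 to 160 CPM with a median of 95.9 in the low group. Among 18 genes of mitosis 16 were negative (median -0.28), 4 of them at an unadjusted p under 0.05, with summed medians of 15.5 and 17.3 CPM. Of 10 macrophage genes 9 were negative (median -0.09), 2 of them at an unadjusted p under 0.05. Erythroid genes had a median of -0.24, fibroblast genes -0.06, endothelial genes -0.02, adipocyte genes 0.02 and satellite cell genes 0.05. When scores of the slow fibre, adipocyte, macrophage, fibroblast and erythroid lists were added to the fit, 6 genes were called, all shared with the 10. The 6 were Mgst1, Lmo3, Eps8, Rergl, Kif3c and Vcl, and Mgst1 had a log2 difference of 0.64. The part of Schwann cell RNA in the result was not tested.

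For the remaining lists the medians stand beside -0.01 over all genes. Growth and atrophy genes had a median of -0.0019, with 10 genes of either sign. The medians were 0.02 for insulin signalling and glucose uptake, 0.02 for fatty acid use, -0.03 for branched-chain amino acid catabolism, 0.01 for the tricarboxylic acid cycle, 0.01 for the clock, -0.01 for the neuromuscular junction, -0.02 for steroid receptors and cofactors and -0.05 for the glucocorticoid response. The immediate-early genes had a median of 0.08. The interferon response genes lay as far out as the slow fibre genes, with a median of -0.16 and 13 of 14 negative, 2 of them at an unadjusted p under 0.05.

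In females several list members followed Slc15a5 that were not called between high and low males. Pik3r1, the regulatory subunit of phosphoinositide 3-kinase, had a slope of 0.26 ± 0.04 (SE; edgeR adjusted p = 5.38e-05), and in the males a log2 difference of -0.08 ± 0.07. Akt2, a kinase of insulin signalling, had a slope of 0.08 ± 0.02 (adjusted p = 0.00947). Of 23 genes of fatty acid use 4 were called in females (17.4%, beside 1.34% of all genes), all positive, namely Cpt2 (0.13 ± 0.02), Plin5 (0.21 ± 0.05), Plin2 (0.16 ± 0.04) and Acadl (0.09 ± 0.03), while their log2 differences between high and low males ranged from 0.00 to 0.09. Of the other lists, Fbxo32, Myh1, Cidec, Alas2, Hbb-bs, Ivd and Ier3 were called in females, each with a positive slope. These called genes include markers of adipocytes and of red blood cells. Of 11 adipocyte genes 9 had a positive slope (median 0.24, beside -0.0030 over all genes), among them Cidec (0.42 ± 0.11 SE, the one called), Cidea (0.71 ± 0.22, edgeR adjusted p = 0.0694), Cfd (0.37 ± 0.11), Adipoq (0.27 ± 0.10) and Fabp4 (0.21 ± 0.07). Of 5 erythroid genes 4 were positive (median 0.32), with Alas2 and Hbb-bs called. The part of adipocyte and blood RNA in the female slopes was not tested. With batch as covariate 160 genes were called in females, of which 98.1% were shared with the fit without batch.

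The slope on the Slc15a5 score differed between the sexes for 110 genes (0.584% of 18822). The male slope minus the female slope was positive for 36 (0.191%) and negative for 74 (0.393%), whatever the sign of either slope. None of the 10 genes called between high and low males was among the 110. Of the list members called in females, Pik3r1, Alas2, Hbb-bs, Cpt2, Ivd and Ier3 were among the 110, each with the larger slope in females. Females had a median score of 7.35 and the other males 10.4, so the slopes lie on different parts of the score. A unit spans a larger fold change in CPM at low scores, and its share in these differences was not tested. The difference of slopes (males minus females) was -0.28 ± 0.05 (SE) for Pik3r1, -0.65 ± 0.10 for Alas2 and -0.13 ± 0.03 for Cpt2 (edgeR adjusted p = 1.4e-05, 1.3e-05 and 0.00722), while Plin5 (adjusted p = 0.0741), Acadl (0.076) and Plin2 (0.155) did not pass. The difference between high and low males varied between generations for 1 gene (0.00531%), Tchh, trichohyalin of the hair follicle, which stood out in low male DO084 of generation 17.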

How the data were processed

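Polyadenylated RNA of 239 males and 235 females (474 libraries) was sequenced from both ends. The authors pooled the mates as if unpaired, mapped them to the transcripts of all founder strains and deposited expected counts for each gene (EMASE in GBRS; versions and use of strand are not given in the sources used here). They also deposited DESeq2 VST scores, close to log2 at high counts. Genes with 0 counts took up to 5 values in these scores, 1 for each of 5 sets of libraries, so a batch term had been removed. These sets were read as batches (batch 1, 234 libraries, and batch 2, 227). Wave, a covariate of the study, is not in the labels. Positions are GRCm38, named in the submitters' processing notes, and promoters RefSeq (GRCm38.p6).

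The members, gene lists and tests were chosen with earlier results of these data known. Expected counts, deposited unnormalised, were rounded and tested with edgeR 4.0.16 in R 4.3.3 (filterByExpr over all libraries grouped by sex and generation, minimum count 10, TMM, quasi-likelihood F-test, Benjamini-Hochberg over all genes, threshold 0.05), with limma 3.58.1 and DESeq2 1.42.0 as alternatives. CPM are on TMM-scaled totals and log2 CPM used a prior count of 2. Slopes used the VST of Slc15a5. Total counts were compared with 100000 permutations. Named genes were the called ones with a mean of at least 1 CPM and 1 sign in 5 generations (up to 10 each way), fixed Slc15, polyamine, hormone response and fibre genes, called genes within 4 Mb, called list members, and the 5 largest sex differences each way. Lmo3 and Rergl entered as neighbours. One gene of the fixed lists is not reported here. Mrln and Gm10051 were named after their values were seen, as were the list members with the smallest p. The test was also tried on simulated counts. No 2 of the 100 libraries agreed within sampling noise (lowest chi-square per gene 68.1). Libraries are separate animals. Relatedness between them was not modelled here, whereas the study's eQTL mapping took kinship as a random effect. Depth was 51.3 to 138 counts, in units of 1000000, in the 100 libraries.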

Additional observations from a re-analysis of the deposited data

Results flagged for a closer look

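Total counts held 4 groups of 10 with a library set apart from the rest, out of 10 groups tested, where chance flags about 1 in 20. They were the highest high males of generation 19 (129.5, in units of 1000000 counts, next 88.6) and of generation 23 (138.2, next 85.9), the lowest high male of generation 21 (59.01, next 78.9) and the highest low male of generation 18 (109.4, next 85.8).

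Tchh, trichohyalin of the hair follicle, was the single gene whose difference between high and low males varied between generations (edgeR interaction, adjusted p = 0.00226; 0.00531% of genes tested, 1166 at an unadjusted p under 0.05). Low male DO084 of generation 17 had 299.4 CPM of Tchh, 68.3 CPM of Krt10 and 117 CPM of Dsp, whereas the highest of the other 99 libraries had 3.66, 15.3 and 6.97 CPM. Without that library 0 genes were called in the interaction, with 1045 at an unadjusted p under 0.05. Without it the comparison of high and low males called 8 genes in place of 10. Atg4a and Mrln passed the threshold no more (adjusted p = 0.0617 and 0.0622), although their log2 differences stayed at 0.12 and 0.30.

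The slope of genes on the Slc15a5 score differed between the sexes for 110 genes (0.584% of 18822). The male slope minus the female slope was positive for 36 (0.191%) and negative for 74 (0.393%), whatever the sign of either slope. None of the 10 genes called between high and low males was among the 110. The sexes lie on different parts of the score, where a unit spans unlike fold changes in CPM, and the share of this was not tested.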

How the results depend on the processing

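The comparison of high and low males called 10 genes. It called 34 with the DESeq2 Wald test (9 shared), 32 with no covariate (10 shared), 29 as a slope over all males (9 shared), 6 with cell-type and fibre-type scores, 4 without generation 17, 3 without generation 18, 27 without generation 23, and, in alternatives added after seeing the data, 1 within batch 1 and 0 within batch 2, where the smaller number of libraries is part of the construction. The remaining alternatives gave 7 to 15. Mgst1 stayed past the threshold in 20 of 21 alternatives, with adjusted p from 1.6e-13 to 0.314, Lmo3 in 18 of 20, Eps8 in 18 of 21, Kif3c and Vcl in 17, Rergl in 16 of 20, Ybx3 in 14 and Atg4a in 12 of 21, while Mrln did so in 11 and Gm10051 in 10. Kif3c, Vcl, Ybx3 and Atg4a lost their calls without generation 17 (adjusted p = 0.0995, 0.315, 0.271 and 0.108) and without generation 18 (0.247, 0.304, 0.305 and 0.304), Ybx3 and Atg4a also without generation 21 (0.0849 and 0.0797) and with cell-type scores (0.115 for both), Atg4a also without generation 19 (0.138) and Eps8 without generation 21 (0.0797). Their signs did not change. Gm10051 turned to 0.68 with DESeq2, and the cause was not tested. The female slope called 0.792% of the genes with limma on the deposited VST and 0.85% with batch as covariate against 1.34%, the interaction 0 with limma and 0 without the library highest in Tchh, and the slope difference between the sexes 56 with limma. 1700001O22Rik passed the threshold without generation 23 (0.87) and Ucp1 with no covariate (3.31). The difference in total count had p = 0.0712 for log2 totals and, for medians (-5.46, in units of 1000000 counts), p = 0.0409. No paired analysis was possible because each animal number occurs once and the groups share no replicate numbers. Depth limits Lmo3, Rergl and the female Slc15a5 level, which rest on few reads.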
